A study of Mus musculus with 24 samples.

Results

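The matrix metalloproteases (MMPs), the ADAMTS proteases, the ADAMTS-like proteins and the tissue inhibitors of metalloproteases (TIMPs) were followed across cultured mouse fat cells. Members were the protein-coding genes of the count table whose symbol begins with Mmp, Adamts or Adamtsl and a number, or is Timp with a number from 1 to 4. This gave 50 of the 53465 genes: 22 MMPs, 19 ADAMTS, 5 ADAMTS-like genes and 4 TIMPs. A 51st symbol, Mmp1a, is annotated as a polymorphic pseudogene and was left out, with 3 counts in all. Of the 50 members, 39 were expressed enough to be tested (16 MMPs, 14 ADAMTS, all 5 ADAMTS-like genes and all 4 TIMPs).

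The study concerns the SUMO protease SENP2, the transcription factor C/EBPβ and the browning of white fat. Stromal vascular fraction cells, the non-fat cells of adipose tissue that include fat cell precursors, came from epididymal (eWAT) or inguinal (iWAT) white fat. They were driven to differentiate for 2 days with dexamethasone, isobutylmethylxanthine (0.5 mmol/l) and insulin (0.1 mg/ml), and then kept for 5 days with insulin (1 µg/ml), throughout with 10% serum. Polyadenylated RNA was sequenced in 24 libraries, 3 in each of 8 groups. Both genotypes carried the Senp2flox/flox allele. Cont cultures carried that allele alone, and aKO cultures carried it with Adipoq Cre, a recombinase driven by the promoter of the adipocyte gene Adipoq, so that deletion is limited to cells that turn this promoter on. Each genotype and depot was treated with siC/EBPb, an siRNA against C/EBPβ, or with siNS, which the labels do not spell out. The ages of the animals were not given in the sources used here. The labels do not say whether replicates are separate animals or cultures, and the p-values therefore describe the spread of these libraries alone, which may be technical.

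MMPs and ADAMTS proteases are zinc enzymes that cut the matrix around cells. MMPs cut collagens, elastin and adhesion proteins, ADAMTS proteases cut proteoglycans or trim procollagens, ADAMTS-like proteins share the binding domains but lack the protease domain, and TIMPs plug the active site of the proteases. In fat, matrix turnover accompanies the growth of adipocytes, and macrophages are a known source of several MMPs.

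The libraries held 8435494 to 15388744 counts in genes, apart from iWAT aKO siNS replicate 2, which held 603585 and in which 93.3% of reads were not aligned. That library was kept, and calls that change without it are given beside the result. Senp2 ranged, in counts scaled to library size (CPM), from 52.7 to 57.1 for Cont siNS against 43.7 to 53.0 for aKO siNS of eWAT, and from 46.2 to 55.5 against 48.0 to 57.4 of iWAT. It did not pass the test in either depot, and since counts are per gene they do not show the deleted part, so aKO stands for the label. Cebpb, the siRNA target, fell with siC/EBPb in all 4 settings, with log2 fold changes of -1.73 and -1.79 in Cont and -2.47 and -2.69 in aKO for eWAT and iWAT (edgeR quasi-likelihood (QL) test, largest adjusted p = 6.96e-08). Under siC/EBPb it was also lower in aKO than in Cont (-0.88 and -0.97). Of 11 adipocyte markers all were detected in every group, with a summed level of 1916 to 2522 CPM in eWAT Cont siNS. The macrophage or leukocyte markers, 12 genes, summed to 2119.7 to 2960.3 CPM there.

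The promoters of members that moved with siC/EBPb are shown first, since C/EBPβ is the factor that the siRNA targets. The sequences are the 250 bases before the transcription start, from RefSeq (build GRCm38.p6), written 5′ to 3′ on the gene's strand. Capitals mark matches to a C/EBP motif, TTNNGNAA, or an AP-1 motif, TGANTCA, each searched on both strands. The first 4 come from genes of the MMP cluster on chromosome 9 that fell with the siRNA, followed by Timp1, which also fell, and Timp3, which rose.
Mmp12, chr9:7344147-7344396, plus strand: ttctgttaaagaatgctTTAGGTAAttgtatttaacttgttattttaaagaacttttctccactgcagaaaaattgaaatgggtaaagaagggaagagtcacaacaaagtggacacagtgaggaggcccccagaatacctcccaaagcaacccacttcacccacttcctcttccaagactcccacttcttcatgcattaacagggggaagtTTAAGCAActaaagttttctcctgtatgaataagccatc
Mmp3, chr9:7445572-7445821, plus strand: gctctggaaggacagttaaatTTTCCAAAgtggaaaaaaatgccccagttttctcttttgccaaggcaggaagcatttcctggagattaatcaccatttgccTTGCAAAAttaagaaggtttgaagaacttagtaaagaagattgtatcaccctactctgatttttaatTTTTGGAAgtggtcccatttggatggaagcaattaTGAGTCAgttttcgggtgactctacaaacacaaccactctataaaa
Mmp8, chr9:7558179-7558428, plus strand: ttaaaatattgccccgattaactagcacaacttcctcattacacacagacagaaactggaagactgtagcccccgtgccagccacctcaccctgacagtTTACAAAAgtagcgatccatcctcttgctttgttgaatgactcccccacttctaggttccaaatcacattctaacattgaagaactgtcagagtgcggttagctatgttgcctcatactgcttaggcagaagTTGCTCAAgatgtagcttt
Mmp27, chr9:7571146-7571395, plus strand: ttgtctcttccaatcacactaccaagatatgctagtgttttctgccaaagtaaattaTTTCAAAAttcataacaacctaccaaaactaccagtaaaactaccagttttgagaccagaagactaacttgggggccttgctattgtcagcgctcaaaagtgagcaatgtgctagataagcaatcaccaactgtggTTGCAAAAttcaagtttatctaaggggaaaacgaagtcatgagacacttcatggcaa
Timp1, chrX:20869916-20870165, plus strand: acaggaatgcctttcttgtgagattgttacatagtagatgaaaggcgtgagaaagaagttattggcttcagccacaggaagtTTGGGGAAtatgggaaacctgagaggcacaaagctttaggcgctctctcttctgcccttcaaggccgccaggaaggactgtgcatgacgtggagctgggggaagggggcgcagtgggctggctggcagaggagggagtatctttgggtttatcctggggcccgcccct
Timp3, chr10:86300162-86300411, plus strand: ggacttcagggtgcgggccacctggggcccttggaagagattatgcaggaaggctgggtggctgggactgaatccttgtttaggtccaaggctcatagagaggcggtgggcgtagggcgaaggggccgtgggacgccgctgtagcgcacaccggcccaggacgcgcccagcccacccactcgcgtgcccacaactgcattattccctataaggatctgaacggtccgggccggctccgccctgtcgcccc
The Mmp3 promoter held 3 C/EBP matches and 1 AP-1 match, at position -46 from the start. Those of Mmp12, Mmp8 and Mmp27 shown here held 2 C/EBP matches each, Timp1 held 1 and Timp3 held 0. A second Mmp12 promoter (chr9:7347124-7347373), not shown, held 0 C/EBP matches and 1 AP-1 match. Also not shown was that of Mmp13, of the same cluster, with 0 C/EBP matches and 1 AP-1 match. The promoter of Adamts9, which fell in all 4 siRNA comparisons, held 0 matches to either motif. A promoter window of 300 bases, to 50 after the start, was found for 35 of the 50 members, and a gene with several windows was counted once. Of the 10 members that fell in all 4 siC/EBPb comparisons 6 had a window, and 5 of these held the C/EBP motif. Among those that rose in all 4, 0 of the 3 with a window did, and among the other tested members 3 of 17. These groups were formed from calls in these same data, and a difference between them in the motif was not tested. Counted by window rather than by gene, the C/EBP motif lay in 40.7% of all 32851 RefSeq windows of this length and the AP-1 motif in 7.8%. A match describes these letters and is not a binding site.

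In Cont siNS the highest levels were those of Timp1, Mmp2, Mmp3, Timp2, Mmp14 and Adamts2, given as CPM per kilobase of exon so that genes can be compared. Timp1 was highest in eWAT, at 714 ± 5.12 (SD, n = 3). Mmp2, a gelatinase, followed at 347 ± 21.2, and Mmp3, a stromelysin that also activates other MMPs, at 331 ± 40.6, so these neighbours did not differ beyond their spread. Timp2 had 222 ± 4.50 CPM per kilobase, Mmp14, the membrane protease that activates Mmp2, 159 ± 6.73, and Adamts2, which trims procollagen, 117 ± 1.97. At the other end Timp4, Mmp16, Adamts16 and Adamts17 had less than 0.1 CPM per kilobase in eWAT. In iWAT Timp1 was again highest, at 732 ± 22.6, and Mmp2 (299 ± 10.3) and Mmp3 (288 ± 25.0) again overlapped. The 11 members too low to test were Adamts8, Adamts13, Adamts18, Adamts19, Adamts20, Mmp1b, Mmp7, Mmp20, Mmp21, Mmp24 and Mmp25, with 1 to 103 counts over all 24 libraries. Of the 39 tested, 32 reached the level that the filter asks for (0.745 CPM in 3 libraries) in all 8 groups. Mmp8, Mmp10, Mmp27, Adamts16 and Mmp16 reached it in only some groups, so the filter kept them through the groups where they were high. Timp4 and Adamts17 reached it in no single group.

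**Figure D1:**
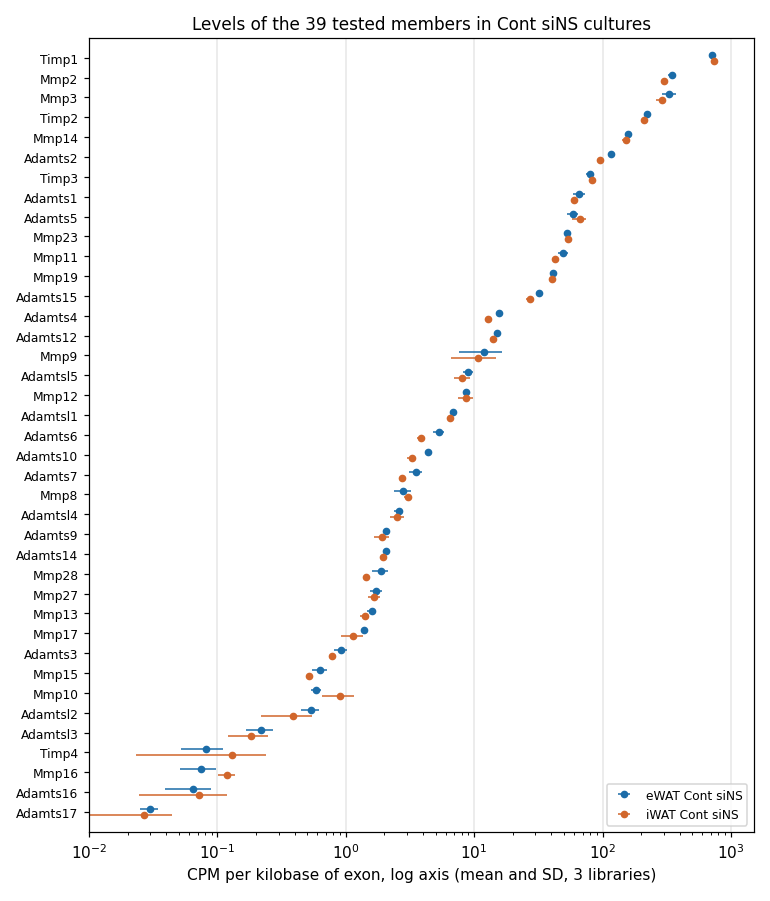
Mean and SD over 3 libraries of each tested member in Cont siNS cultures, in CPM per kilobase of exon on a log axis, for eWAT (blue) and iWAT (orange). Timp1 stands highest in both depots, and the values of the depots lie close together for most members.

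No member was called between the depots. None of the 39 tested members passed the test between iWAT and eWAT Cont siNS (edgeR QL, adjusted p under 0.05), and 7 had an unadjusted p under 0.05. With a replicate block 0 members passed as well, and 1.20% of all 14785 tested genes passed in the fit without it. That block shifted each replicate number alike in all 8 groups. Same-numbered siNS and siC/EBPb libraries of eWAT Cont did not deviate together from their group means (r = 0.00567, -0.0933 and -0.134). The shared block therefore cannot take up a pairing of the depots that holds within Cont siNS. The member nearest to the threshold was Adamts6, with a log2 fold change of iWAT over eWAT of -0.47 ± 0.12 (SE; edgeR QL adjusted p = 0.057). The difference between depots in the genotype effect under siNS passed the edgeR QL test for 0 of 39 members (0 with an unadjusted p under 0.05) and for 0% of all genes (415 with an unadjusted p under 0.05).

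Across the genotype comparison under siNS, about as many members rose as fell. In eWAT 10 rose and 9 fell of 39 in aKO, where 20.4% of all tested genes changed. In iWAT 11 rose and 8 fell, where 15.2% of all genes changed. The members' median log2 fold change was 0.10 in eWAT and 0.14 in iWAT, against 0.00 and -0.00 over all genes. The depots share no libraries in this comparison but are not shown to be independent. Same-numbered Cont siNS libraries of the depots deviated together from their group means across genes (r = 0.27, 0.425 and 0.312). In both depots, 9 members rose, among them Adamtsl4, Timp2, Mmp28 and Adamtsl3, and 7 fell, among them Adamts6, Mmp8, Adamts14 and Adamts5. The share of all genes called alike in both depots was not counted. Under siC/EBPb fewer members differed between genotypes. There 6 rose and 8 fell in eWAT (background 10.8%), and 6 rose and 9 fell in iWAT (background 10.0%). These comparisons share their Cont siNS or other libraries with the siRNA comparisons that follow, so these and the siRNA values are not independent.

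Treatment with siC/EBPb moved most tested members. In Cont cultures 11 rose and 15 fell in eWAT (background 26.8%), and 10 rose and 12 fell in iWAT (background 24.3%). In aKO cultures 9 rose and 20 fell in eWAT (background 35.7%), and 9 rose and 21 fell in iWAT (background 31.3%). The members' median log2 fold change was -0.03 and -0.12 in Cont and -0.37 and -0.47 in aKO, while that over all genes lay between -0.01 and 0.02. The 4 comparisons use different libraries, but the depots are not shown to be independent. Same-numbered eWAT and iWAT libraries deviated together from their group means across genes in aKO siC/EBPb (r = 0.748, 0.424 and 0.537) and in Cont siNS (0.27, 0.425 and 0.312). In all 4 comparisons, 10 members fell (Mmp3, Mmp8, Mmp9, Mmp12, Mmp19, Mmp27, Adamts5, Adamts9, Adamts15 and Timp1) and 6 rose (Mmp17, Adamts6, Adamts14, Adamtsl1, Adamtsl3 and Timp3). The share of all genes that fell or rose in all 4 was not counted, so these counts have no background beside them. Mmp14, Mmp16, Adamts4, Adamts10 and Adamtsl5 passed in none. In bulk RNA, fewer cells of a type and less RNA per cell cannot be told apart.

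**Figure D2:**
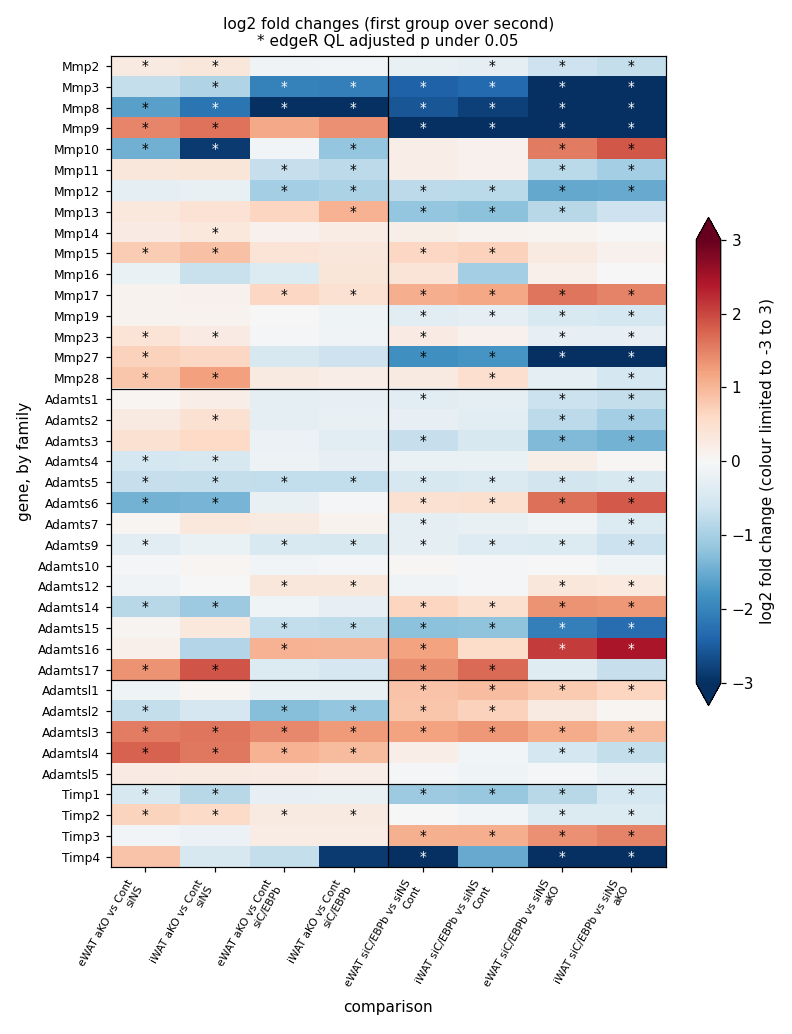
Log2 fold changes of the 39 tested members (rows, by family) in the 4 genotype comparisons (left) and the 4 siRNA comparisons (right), red for higher and blue for lower in the group named first; asterisks mark an edgeR QL adjusted p under 0.05. The stromelysin, collagenase and gelatinase genes Mmp3, Mmp8 and Mmp9 are blue in all 4 siRNA columns, and Timp3 and Mmp17 are red.

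Markers of other cell types moved in the same comparisons. The 12 macrophage or leukocyte markers summed to 2119.7 to 2960.3 CPM in eWAT Cont siNS and 414 to 487 CPM with siC/EBPb, and to 1637 to 1737 and 94.7 to 206 CPM in aKO. In iWAT the sums were 2046 to 2835, 392 to 428, 888 to 1653 and 77.7 to 182 CPM in the same order. All 12 fell in each siRNA comparison, and 9 in eWAT and 7 in iWAT fell in aKO under siNS. None of the 12 was at 0 in any group. Adipocyte markers fell in 5 of 11 cases with siC/EBPb in Cont and 9 of 11 in aKO, in each depot, and 6 in eWAT and 3 in iWAT rose in aKO under siNS. Of 8 smooth muscle or pericyte markers, Acta2, Myh11, Cnn1, Tagln and Des rose in each siRNA comparison, Rgs5 and Mcam passed in none, and Cspg4 fell in all but eWAT aKO. The 8 had sums of 1501 to 1742 CPM in eWAT Cont siNS and 3029.5 to 3079.8 CPM with siC/EBPb. Mesothelial markers, 7 genes, summed to 24.7 to 26.2 CPM in Cont siNS against 6.09 to 7.77 CPM in aKO siNS of eWAT. In iWAT these sums were 27.0 to 28.5 and 3.96 to 7.83 CPM, the last group holding the shallow library. Within these sums the Cont siNS means of Msln and Upk3b were 0.0906 and 0.434 CPM in eWAT and 0.11 and 0.532 CPM in iWAT. Of the 6 tested, 3 fell in aKO in each depot under siNS, and 5 in eWAT and 4 in iWAT under siC/EBPb, with 0 rising. Those under siNS were Wt1 (-3.23 in eWAT and -3.29 in iWAT), Krt19 and Krt7, and Upk3b, Upk1b and Lrrn4 did not pass there. With siC/EBPb 3 rose in Cont of each depot, while 1 fell in eWAT and 2 in iWAT, and 0 passed in aKO. Fibroblast or progenitor markers rose in 5 of 9 cases in eWAT aKO and 4 of 9 in iWAT aKO under siNS, and 1 fell in each. With siC/EBPb 2 rose and 2 fell in eWAT Cont, 2 and 3 in iWAT Cont, 1 and 5 in eWAT aKO, and 0 and 4 in iWAT aKO. Pdgfra and Pi16 fell in all 4, while Pdgfrb rose in all but iWAT aKO. Dpt rose in Cont of both depots and fell in eWAT aKO. Endothelial markers, 7 of 8 tested, fell in aKO in 4 cases in eWAT and 3 in iWAT under siNS, where 1 rose in each, and in 3 and 5 under siC/EBPb. Pecam1 and Cdh5 fell in all 4 genotype comparisons, and Tek was the 1 that rose under siNS (0.86 in eWAT and 1.24 in iWAT). With siC/EBPb 2 endothelial markers rose and 1 fell in Cont of each depot, and 1 rose and 1 fell in aKO of each. Kdr rose and Vwf fell in all 4 siRNA comparisons, and Tek rose in Cont only. The endothelial sums were 38.6 to 41.8 CPM in eWAT Cont siNS and 30.4 to 34.8 in eWAT aKO siNS, and 35.6 to 37.0 and 29.6 to 51.4 in iWAT, the last group holding the shallow library. Epithelial markers summed to at most 1.64 CPM in any library. The part of these cell types in the members' changes was not tested.

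The TIMPs moved in different directions. Timp1, which inhibits most secreted MMPs, fell with siC/EBPb and, under siNS, in aKO. Between genotypes under siC/EBPb it did not pass in either depot. Timp2 rose in aKO, Timp3 rose with siC/EBPb, and Timp4 was near its detection limit. Timp1 (chromosome X, 20870166 to 20874735 in GRCm38) stood in eWAT at 629, 635 and 638 CPM in Cont siNS, 288, 290.2 and 321 in Cont siC/EBPb, 414, 462 and 481 in aKO siNS, and 268, 237 and 259 in aKO siC/EBPb, with replicates given in the order 1, 2 and 3 here and from here on. In iWAT it stood at 636, 641 and 673 CPM in Cont siNS, 294, 289.9 and 307 in Cont siC/EBPb, 417, 168 and 425 in aKO siNS, and 275, 238 and 249 in aKO siC/EBPb. The siNS and siC/EBPb values of Cont did not overlap in either depot, and the low iWAT aKO siNS value is the shallow library. With siC/EBPb the log2 fold change of Timp1 was -1.08 ± 0.15 (SE) in eWAT and -1.13 ± 0.15 in iWAT (edgeR QL adjusted p = 6.47e-06 and 4.22e-06) in Cont. In aKO it was -0.83 ± 0.15 (SE) in eWAT and -0.52 ± 0.16 in iWAT (edgeR QL adjusted p = 1.17e-04 and 0.0131). For the genotype under siNS it was -0.49 ± 0.15 (SE) in eWAT and -0.84 ± 0.16 in iWAT (edgeR QL adjusted p = 0.0233 and 4.99e-04). Adjusted p-values that pass the threshold over all libraries but not when a library is left out, or under another setting, are given after the test here and for later genes. In eWAT that adjusted p was 0.102 and 0.0617 leaving out eWAT aKO siNS libraries 1 and 2 and 0.0625, 0.0663 and 0.0602 leaving out eWAT Cont siNS libraries 1, 2 and 3. For siC/EBPb in iWAT aKO it was 0.119 and 0.135 leaving out iWAT aKO siNS libraries 1 and 3, 0.059 leaving out iWAT aKO siC/EBPb library 2, and 0.117 with the iWAT libraries alone.

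Timp2, an inhibitor that also takes part in the activation of Mmp2 by Mmp14, lies on chromosome 11 (118301069 to 118355740). In eWAT its values were 856, 853 and 885 CPM in Cont siNS, 889, 845 and 862 in Cont siC/EBPb, 1394, 1346 and 1376 in aKO siNS, and 1030.2, 1040.2 and 1058 in aKO siC/EBPb. In iWAT they were 799, 811 and 828 CPM in Cont siNS, 776, 777 and 745 in Cont siC/EBPb, 1216, 1165 and 1266 in aKO siNS, and 913, 892 and 974 in aKO siC/EBPb. Every aKO siNS library lay above every other library of its depot. The genotype log2 fold change under siNS was 0.67 ± 0.074 (SE) in eWAT and 0.58 ± 0.075 in iWAT (edgeR QL adjusted p = 1.80e-07 and 2.83e-06). Under siC/EBPb it was 0.27 ± 0.074 (SE) in eWAT and 0.27 ± 0.074 in iWAT (edgeR QL adjusted p = 0.0157 and 0.0153). For siC/EBPb in Cont it was 0.00 ± 0.074 (SE) in eWAT and -0.09 ± 0.074 in iWAT (edgeR QL adjusted p = 0.99 and 0.462). In aKO Timp2 fell with the siRNA, with a log2 fold change of -0.40 ± 0.074 (SE) in eWAT and -0.40 ± 0.075 in iWAT (edgeR QL adjusted p = 1.01e-04 and 1.45e-04). The genotype difference under siC/EBPb had an adjusted p in eWAT of 0.0553 leaving out eWAT aKO siC/EBPb library 3, 0.0747 and 0.0607 leaving out eWAT Cont siC/EBPb libraries 2 and 3, and 0.177 with no filter on low counts. In iWAT it was 0.0953 leaving out iWAT aKO siC/EBPb library 3, 0.0529 and 0.0929 leaving out iWAT Cont siC/EBPb libraries 1 and 3, 0.153 with the iWAT libraries alone, and 0.0994 with no filter on low counts.

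Timp3, the TIMP that binds to the matrix and also inhibits ADAM and ADAMTS proteases, lies on chromosome 10 (86300372 to 86349506). It stood in eWAT at 646, 605 and 687 CPM in Cont siNS, 1361, 1390.4 and 1322 in Cont siC/EBPb, 604, 651 and 585 in aKO siNS, and 1678, 1389 and 1716 in aKO siC/EBPb. In iWAT its values were 671, 635 and 710.0 CPM in Cont siNS, 1448, 1467 and 1387 in Cont siC/EBPb, 626, 487 and 654 in aKO siNS, and 1736, 1543 and 1778 in aKO siC/EBPb. All 12 libraries with siC/EBPb lay above all 12 with siNS. The log2 fold change with siC/EBPb was 1.07 ± 0.10 (SE) in eWAT and 1.09 ± 0.10 in iWAT (edgeR QL adjusted p = 4.99e-09 and 4.39e-09) in Cont and 1.38 ± 0.10 (SE) in eWAT and 1.49 ± 0.10 in iWAT (edgeR QL adjusted p = 2.80e-11 and 1.26e-11) in aKO. Between genotypes it did not pass under siNS (-0.08 and -0.17 in eWAT and iWAT). Syn3, whose exons overlap those of Timp3 on the other strand by 1733 bases, had 129 counts in all libraries together. The markers Acta2, Myh11, Cnn1, Tagln and Des rose in the same 4 comparisons and Cspg4 did not, and their part in the Timp3 values was not tested.

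Timp4, a TIMP with restricted expression, had few counts and is uncertain, as its exons overlap Syn2 on the other strand by 90 bases. Its values in eWAT were 0.411, 0.678 and 0.356 CPM in Cont siNS, 0, 0.0662 and 0.0666 in Cont siC/EBPb, 1.08, 0.542 and 1.04 in aKO siNS, and 0, 0 and 0.0692 in aKO siC/EBPb. In iWAT they were 0.658, 0.198 and 1.44 CPM in Cont siNS, 0.475, 0.223 and 0.0803 in Cont siC/EBPb, 0.430, 1.98 and 0.532 in aKO siNS, and 0, 0.0705 and 0 in aKO siC/EBPb. In counts, eWAT held 21 over the 3 Cont siNS libraries and 2 with siC/EBPb, and 38 and 1 in aKO, while iWAT held 22, 9, 13 and 1. The test passed for siC/EBPb in eWAT Cont, eWAT aKO and iWAT aKO (edgeR QL adjusted p = 0.00625, 5.97e-05 and 0.00622) and not in iWAT Cont (0.0866). Fitted fold changes at such counts depend on the prior count and are not given.

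**Figure D3:**
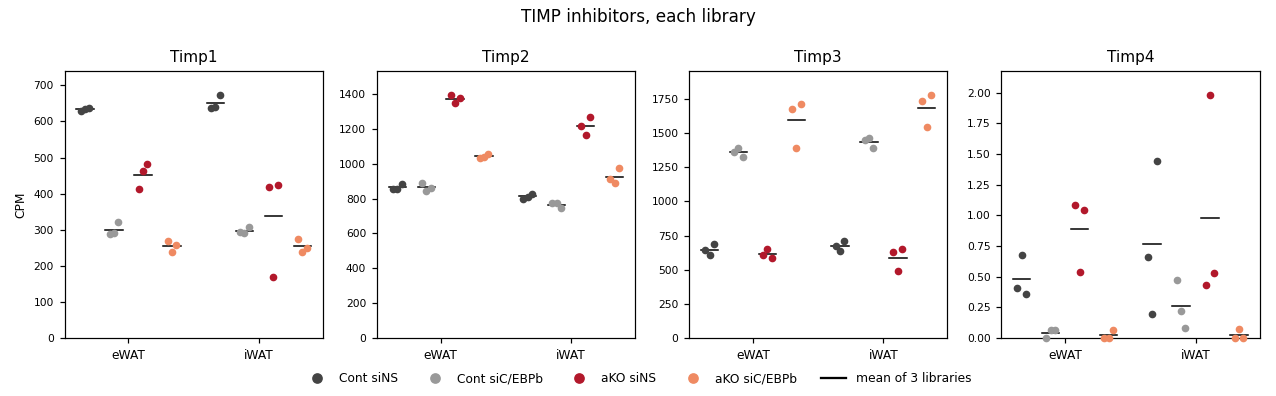
CPM of the 4 TIMP genes in each library (dots) with group means (lines), for eWAT and iWAT. Timp3 is higher in all 12 libraries with siC/EBPb, Timp2 is highest in aKO siNS, Timp1 is highest in Cont siNS, and Timp4 stays below 2 CPM.

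Among the gelatinases, which cut denatured collagen and basement membrane, Mmp2 and Mmp9 were both higher in aKO under siNS and both lower with siC/EBPb in aKO, with changes of different size. Mmp2, on chromosome 8 (92827291 to 92853420), had in eWAT 1130.1, 1124 and 1251 CPM in Cont siNS, 1039, 957 and 1012 in Cont siC/EBPb, 1410, 1399 and 1461 in aKO siNS, and 840.5, 960.2 and 981 in aKO siC/EBPb. Mmp2 in iWAT had 1009, 974 and 1044 CPM in Cont siNS, 827, 843 and 821 in Cont siC/EBPb, 1216, 1333 and 1328 in aKO siNS, and 699, 807 and 841 in aKO siC/EBPb. The aKO siNS libraries were the highest of each depot. The genotype log2 fold change under siNS was 0.28 ± 0.087 (SE) in eWAT and 0.35 ± 0.089 in iWAT (edgeR QL adjusted p = 0.02 and 0.00582). With siC/EBPb it was -0.22 ± 0.087 (SE) in eWAT and -0.28 ± 0.088 in iWAT (edgeR QL adjusted p = 0.0626 and 0.0185) in Cont. In aKO it was -0.62 ± 0.088 (SE) in eWAT and -0.72 ± 0.089 in iWAT (edgeR QL adjusted p = 2.09e-06 and 2.92e-07). For the genotype in eWAT the adjusted p of Mmp2 was 0.0851 leaving out eWAT aKO siNS library 3, 0.0849 and 0.0837 leaving out eWAT Cont siNS libraries 1 and 2, and 0.117 with no filter on low counts. In iWAT it was 0.0528 with the iWAT libraries alone. For siC/EBPb in iWAT Cont it was 0.0959 leaving out iWAT Cont siNS library 3, 0.0542 and 0.0527 leaving out iWAT Cont siC/EBPb libraries 1 and 3, 0.0911 with the iWAT libraries alone, and 0.143 with no filter on low counts.

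Mmp9, the gelatinase known from macrophages, lies on chromosome 2 (164940780 to 164955850). In eWAT it had 46.7, 55.6 and 25.1 CPM in Cont siNS, 5.62, 3.77 and 6.0 in Cont siC/EBPb, 124, 83.0 and 143 in aKO siNS, and 5.57, 6.80 and 21.3 in aKO siC/EBPb. In iWAT, Mmp9 stood at 43.6, 48.6 and 21.2 CPM in Cont siNS, 2.66, 2.45 and 4.82 in Cont siC/EBPb, 111, 94.9 and 131 in aKO siNS, and 4.21, 5.14 and 17.0 in aKO siC/EBPb. Mmp9 was given in full after its values were seen, as were Mmp3, Mmp12, Mmp27 and Adamts15. Replicate 3 was the lowest of Cont siNS and the highest of aKO siC/EBPb in both depots. Under siC/EBPb against siNS, Mmp9 had a log2 fold change of -3.05 ± 0.54 (SE) in eWAT and -3.53 ± 0.64 in iWAT (edgeR QL adjusted p = 3.55e-04 and 4.55e-04) in Cont and -3.38 ± 0.46 (SE) in eWAT and -3.79 ± 0.51 in iWAT (edgeR QL adjusted p = 1.54e-05 and 1.58e-05) in aKO. Without replicate 3 of aKO siC/EBPb the aKO values were -4.25 in eWAT and -4.65 in iWAT. Under siNS Mmp9 rose in aKO, by 1.46 ± 0.39 (SE) in eWAT and 1.63 ± 0.43 in iWAT (edgeR QL adjusted p = 0.0136 and 0.0165). That adjusted p was 0.0636 leaving out eWAT aKO siNS library 3, 0.0674 leaving out eWAT Cont siNS library 3, and 0.0556 by DESeq2 in eWAT and 0.0973 leaving out iWAT aKO siNS library 3 and 0.0671 leaving out iWAT Cont siNS library 3 in iWAT. Under siNS Mmp9 was higher in aKO, while 9 of the 12 macrophage or leukocyte markers in eWAT and 7 in iWAT were lower. Adgre1, Cd68 and Lyz2 passed there in neither depot. Between genotypes under siC/EBPb Mmp9 did not pass in either depot, while 12 of these markers fell in eWAT and 11 in iWAT. In the siRNA comparisons Mmp9 and all 12 markers were lower.

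Of the MMP genes, 9 members sit in 1 cluster of 427.1 kilobases on chromosome 9 (7272514 to 7699585): Mmp13, Mmp12, Mmp1b, Mmp3, Mmp10, Mmp8, Mmp27, Mmp20 and Mmp7. Of these, 6 were tested, and in Cont cultures of each depot 5 of the 6 fell with siC/EBPb. There 26.8% of all tested genes passed in either direction in eWAT and 24.3% in iWAT. Mmp3 (7445822 to 7455975) was the most abundant. In eWAT it had 514, 653 and 623 CPM in Cont siNS, 104, 108 and 123 in Cont siC/EBPb, 337, 388 and 357 in aKO siNS, and 14.9, 36.8 and 31.6 in aKO siC/EBPb. Its iWAT libraries held 472, 561 and 520.2 CPM in Cont siNS, 100.3, 99.0 and 108 in Cont siC/EBPb, 288, 199.8 and 305 in aKO siNS, and 11.3, 30.9 and 31.3 in aKO siC/EBPb. In each depot all siC/EBPb libraries were lower than all siNS libraries, and the aKO siC/EBPb libraries were the lowest. The log2 fold change of Mmp3 with siC/EBPb was -2.42 ± 0.27 (SE) in eWAT and -2.34 ± 0.27 in iWAT (edgeR QL adjusted p = 1.78e-06 and 3.28e-06) in Cont and -3.71 ± 0.30 (SE) in eWAT and -3.50 ± 0.30 in iWAT (edgeR QL adjusted p = 1.36e-08 and 5.75e-08) in aKO. Between genotypes under siC/EBPb it was -2.02 ± 0.29 (SE) in eWAT and -2.06 ± 0.29 in iWAT (edgeR QL adjusted p = 1.07e-04 and 1.16e-04). Under siNS it was -0.72 ± 0.26 (SE) in eWAT and -0.90 ± 0.27 in iWAT (edgeR QL adjusted p = 0.054 and 0.0308), and in iWAT the adjusted p was 0.0789, 0.0518 and 0.0691 leaving out iWAT aKO siNS libraries 1, 2 and 3 and 0.081 and 0.0634 leaving out iWAT Cont siNS libraries 2 and 3.

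Mmp8, the collagenase first known from neutrophils, lies at 7558456 to 7568485 of the cluster. It reached the filter level in every Cont group and in eWAT aKO siNS, and in neither aKO siC/EBPb group. In eWAT it had 5.68, 6.92 and 7.69 CPM in Cont siNS, 1.39, 0.728 and 1.27 in Cont siC/EBPb, 1.92, 1.96 and 2.59 in aKO siNS, and 0.131, 0 and 0.138 in aKO siC/EBPb. Mmp8 in iWAT had 7.32, 6.93 and 7.94 CPM in Cont siNS, 1.52, 0.966 and 0.723 in Cont siC/EBPb, 1.89, 0 and 1.44 in aKO siNS, and 0, 0.211 and 0.0842 in aKO siC/EBPb. It fell in all 8 genotype and siRNA comparisons, and the 0 in iWAT aKO siNS is the shallow library. Under siNS the genotype log2 fold change was -1.63 ± 0.21 (SE) in eWAT and -2.18 ± 0.27 in iWAT (edgeR QL adjusted p = 2.25e-06 and 1.56e-06). With siC/EBPb in Cont it was -2.57 ± 0.24 (SE) in eWAT and -2.81 ± 0.26 in iWAT (edgeR QL adjusted p = 3.01e-09 and 4.20e-09). With siC/EBPb in aKO only 4 counts were left over 3 libraries in each depot, from 94 in eWAT and 41 in iWAT (edgeR QL adjusted p = 3.93e-08 and 6.53e-06). Between genotypes under siC/EBPb the adjusted p was 9.76e-05 in eWAT and 0.000503 in iWAT. Without replicate 2 of iWAT aKO siC/EBPb, which leaves 1 count, the fitted log2 fold changes moved from -3.24 to -4.41 for the genotype and from -3.86 to -5.02 for the siRNA. The 7 neutrophil markers summed to at most 3.96 CPM in any library, and to at most 2.77 CPM outside the group that holds the shallow library. Cxcr2 was at 0 in each Cont siNS group. Csf3r, the only 1 tested, fell with siC/EBPb, by -1.94 and -2.14 in Cont and -2.89 and -3.67 in aKO (log2, eWAT and iWAT). It passed in no genotype comparison. The part of such cells in the Mmp8 values was not tested.

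Mmp27 (7571396 to 7581885) neighbours Mmp8. It reached the filter level in every siNS group and, with siC/EBPb, in eWAT Cont only, so it was kept mostly through groups where it was high. In eWAT it had 4.24, 3.73 and 3.49 CPM in Cont siNS, 1.19, 1.12 and 0.866 in Cont siC/EBPb, 4.93, 7.04 and 6.35 in aKO siNS, and 0.852, 0.517 and 0.899 in aKO siC/EBPb. In iWAT, Mmp27 stood at 4.11, 3.56 and 3.37 CPM in Cont siNS, 0.380, 1.56 and 1.20 in Cont siC/EBPb, 5.76, 5.93 and 5.70 in aKO siNS, and 0.536, 0.987 and 0.589 in aKO siC/EBPb. The siC/EBPb libraries lay below all siNS libraries of their depot. For Mmp27 the siC/EBPb log2 fold change was -1.84 ± 0.25 (SE) in eWAT and -1.76 ± 0.28 in iWAT (edgeR QL adjusted p = 1.78e-06 and 1.80e-05) in Cont and -2.99 ± 0.25 (SE) in eWAT and -2.99 ± 0.29 in iWAT (edgeR QL adjusted p = 2.52e-10 and 4.21e-09) in aKO. Under siNS the genotype values were 0.68 ± 0.18 (SE) in eWAT and 0.63 ± 0.22 in iWAT (edgeR QL adjusted p = 0.00854 and 0.0576), and in eWAT the adjusted p was 0.0615 leaving out eWAT aKO siNS library 2.

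Mmp12, the elastase of macrophages (7344381 to 7369499), had in eWAT 64.7, 58.3 and 65.4 CPM in Cont siNS, 37.8, 39.7 and 32.0 in Cont siC/EBPb, 46.9, 60.8 and 48.8 in aKO siNS, and 13.6, 17.9 and 22.5 in aKO siC/EBPb. Its iWAT libraries held 67.6, 53.1 and 66.8 CPM in Cont siNS, 36.6, 36.5 and 34.5 in Cont siC/EBPb, 56.3, 43.5 and 51.7 in aKO siNS, and 11.9, 19.8 and 24.3 in aKO siC/EBPb. The order of the groups was the same in both depots, with aKO siC/EBPb lowest. With siC/EBPb the log2 fold change of Mmp12 was -0.78 ± 0.17 (SE) in eWAT and -0.80 ± 0.17 in iWAT (edgeR QL adjusted p = 0.00111 and 0.00155) in Cont and -1.54 ± 0.18 (SE) in eWAT and -1.52 ± 0.20 in iWAT (edgeR QL adjusted p = 9.18e-07 and 4.58e-06) in aKO. Under siC/EBPb it was lower in aKO (-1.02 ± 0.18 (SE) in eWAT and -0.95 ± 0.19 in iWAT (edgeR QL adjusted p = 7.76e-04 and 0.00219)). Its exons overlap those of Mmp1b on the other strand by 157 bases, and Mmp1b had 28 counts in all. The macrophage or leukocyte markers fell in the same 4 siRNA comparisons, by a median log2 fold change of -1.94 and -2.12 in Cont and -2.96 and -3.02 in aKO, and their part in the fall of Mmp12, Mmp9 and Mmp8 was not tested.

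The other tested genes of the cluster are Mmp13, a collagenase, and Mmp10, a stromelysin. Mmp13 stood at 3.37 to 6.09 CPM in the siNS libraries of both genotypes. With siC/EBPb its log2 fold change was -1.16 ± 0.27 (SE) in eWAT and -1.23 ± 0.32 in iWAT (edgeR QL adjusted p = 0.00188 and 0.00541) in Cont and -0.84 ± 0.25 (SE) in eWAT and -0.63 ± 0.28 in iWAT (edgeR QL adjusted p = 0.00815 and 0.0918) in aKO, where it passed in eWAT. There the adjusted p was 0.081 leaving out eWAT aKO siC/EBPb library 1. Under siC/EBPb it was higher in iWAT aKO than in iWAT Cont, by 1.04 ± 0.32 (SE; edgeR QL adjusted p = 0.0335), and that adjusted p was 0.124 and 0.157 leaving out iWAT aKO siC/EBPb libraries 2 and 3 and 0.141 and 0.143 leaving out iWAT Cont siC/EBPb libraries 2 and 3. Mmp10 went against its neighbours. It reached the filter level in every Cont group and in eWAT aKO siC/EBPb, and in neither aKO siNS group. It did not pass with siC/EBPb in Cont (0.21 and 0.14), and it rose in aKO (1.56 ± 0.41 (SE) in eWAT and 1.86 ± 0.62 in iWAT (edgeR QL adjusted p = 0.00356 and 0.0225)). Under siNS it fell in aKO, with a log2 fold change of -1.43 ± 0.42 (SE) in eWAT and -2.88 ± 0.55 in iWAT (edgeR QL adjusted p = 0.0147 and 4.98e-04). These are low counts, 16 over the 3 eWAT aKO siNS libraries and 5 over the 3 iWAT ones. All 5 of the latter were in replicate 3, so without it the group held 0 counts, and without replicate 1 the iWAT log2 fold change was -2.03 for the genotype and 1.00 for siC/EBPb. The adjusted p for the genotype in eWAT was 0.107 leaving out eWAT aKO siNS library 2 and 0.0521 leaving out eWAT Cont siNS library 1. That for siC/EBPb in iWAT aKO was 0.267 leaving out iWAT aKO siNS library 1, 0.0644 leaving out iWAT aKO siC/EBPb library 3, and 0.0506 with the iWAT libraries alone. Under siC/EBPb Mmp10 fell in iWAT aKO, with a log2 fold change of -1.16 ± 0.34 (SE; edgeR QL adjusted p = 0.0288). This adjusted p was 0.104 and 0.113 leaving out iWAT aKO siC/EBPb libraries 1 and 2, 0.0518 and 0.187 leaving out iWAT Cont siC/EBPb libraries 1 and 2, 0.0528 by DESeq2, and 0.0735 with the iWAT libraries alone.

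**Figure D4:**
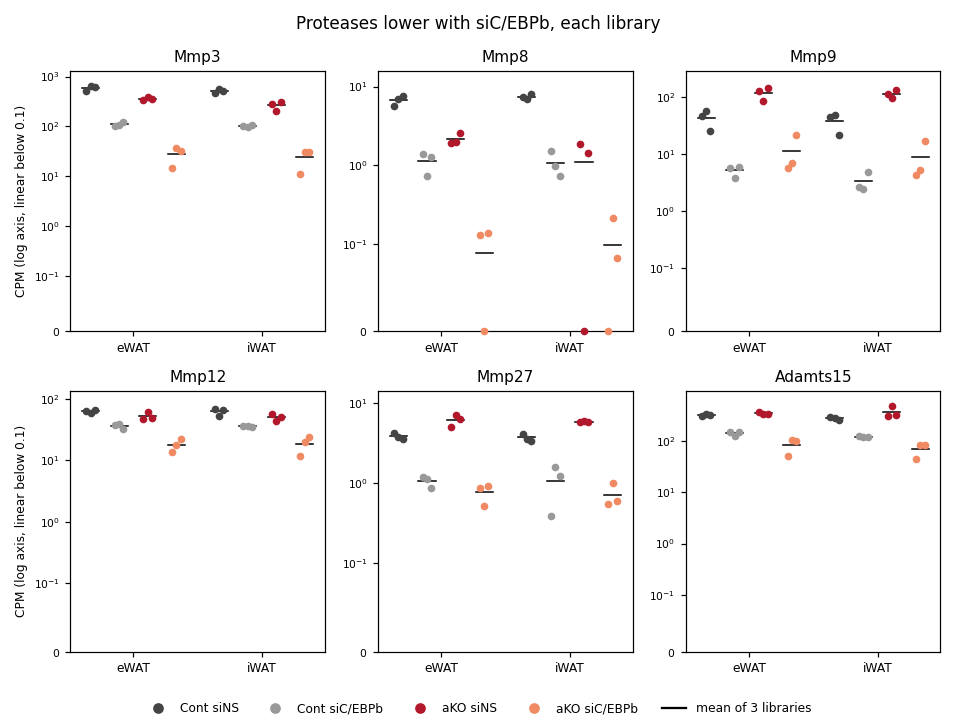
CPM in each library (dots) and group means (lines) of 5 MMPs and Adamts15, which fell in all 4 siRNA comparisons, on a log axis that is linear below 0.1 CPM. The siC/EBPb libraries of each depot and genotype lie below the matching siNS libraries, except for Mmp8 in iWAT aKO, where the shallow siNS library has 0 counts.

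Mmp11, a stromelysin activated inside the cell by furin, fell with siC/EBPb in aKO and did not pass in Cont. On chromosome 10 (75923222 to 75936496), it had in eWAT 124, 149.8 and 138 CPM in Cont siNS, 159, 159 and 156 in Cont siC/EBPb, 162, 177 and 182 in aKO siNS, and 77.0, 123 and 96.5 in aKO siC/EBPb. Mmp11 in iWAT had 119, 119.9 and 118 CPM in Cont siNS, 124, 142 and 124 in Cont siC/EBPb, 147, 192 and 149 in aKO siNS, and 61.2, 89.9 and 76.2 in aKO siC/EBPb. Within aKO the siC/EBPb libraries were all below the siNS libraries, while within Cont the siC/EBPb libraries were all above them. Under siC/EBPb against siNS, Mmp11 had a log2 fold change of -0.81 ± 0.13 (SE) in eWAT and -1.02 ± 0.14 in iWAT (edgeR QL adjusted p = 1.88e-05 and 4.10e-06) in aKO and 0.20 and 0.13 in Cont. Under siC/EBPb the genotype value was -0.68 ± 0.13 (SE) in eWAT and -0.78 ± 0.13 in iWAT (edgeR QL adjusted p = 7.44e-04 and 2.60e-04). Exons of Mmp11 overlap those of Chchd10 on the other strand by 155 bases, and Chchd10 had 8001 counts in all, so part of its count is uncertain.

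Of the membrane-type MMPs, Mmp14 passed in none of the 4 siRNA comparisons, and Mmp17 rose in all 4. Mmp14 (chromosome 14, 54431612 to 54445364) had in eWAT 925, 920.4 and 992 CPM in Cont siNS, 1051, 1064 and 1109.6 in Cont siC/EBPb, 1187, 1078 and 1076 in aKO siNS, and 1170.4, 1243 and 1125 in aKO siC/EBPb. In iWAT, Mmp14 stood at 844, 946 and 925 CPM in Cont siNS, 942, 994 and 966 in Cont siC/EBPb, 965, 1388 and 1050.1 in aKO siNS, and 1185, 1136 and 1057 in aKO siC/EBPb. In eWAT Cont the siC/EBPb libraries lay above the siNS libraries, while the siRNA groups overlapped in iWAT Cont and in aKO of both depots. Its siRNA log2 fold changes, 0.18 and 0.10 in Cont and 0.08 and 0.01 in aKO for eWAT and iWAT, did not pass. Under siNS the genotype value was 0.24 ± 0.10 (SE) in eWAT and 0.31 ± 0.10 in iWAT (edgeR QL adjusted p = 0.104 and 0.0401), past the threshold in iWAT. There the adjusted p was 0.122 and 0.0538 leaving out iWAT aKO siNS libraries 2 and 3, 0.195, 0.0674 and 0.0755 leaving out iWAT Cont siNS libraries 1, 2 and 3, 0.164 with the iWAT libraries alone, and 0.107 with no filter on low counts, with a log2 fold change of 0.15 without the shallow library.

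Mmp17, an MMP held to the membrane by a lipid anchor, lies on chromosome 5 (129584169 to 129611099). In eWAT it had 9.17, 8.75 and 9.47 CPM in Cont siNS, 18.6, 19.2 and 20.1 in Cont siC/EBPb, 10.9, 9.28 and 9.26 in aKO siNS, and 33.3, 27.0 and 28.4 in aKO siC/EBPb. Its iWAT libraries held 9.05, 6.04 and 7.58 CPM in Cont siNS, 18.3, 16.9 and 16.1 in Cont siC/EBPb, 8.52, 5.93 and 8.44 in aKO siNS, and 28.2, 21.3 and 20.8 in aKO siC/EBPb. Every siC/EBPb library lay above every siNS library, and within the siRNA group the aKO libraries lay above the Cont libraries. For Mmp17 the siC/EBPb log2 fold change was 1.08 ± 0.12 (SE) in eWAT and 1.16 ± 0.14 in iWAT (edgeR QL adjusted p = 1.09e-07 and 3.28e-07) in Cont and 1.60 ± 0.12 (SE) in eWAT and 1.48 ± 0.14 in iWAT (edgeR QL adjusted p = 2.09e-11 and 4.87e-09) in aKO. Under siC/EBPb the genotype value was 0.62 ± 0.11 (SE) in eWAT and 0.46 ± 0.12 in iWAT (edgeR QL adjusted p = 1.86e-04 and 0.00833), and in iWAT the adjusted p was 0.127 leaving out iWAT aKO siC/EBPb library 1 and 0.0579 leaving out iWAT Cont siC/EBPb library 3. Mmp15, another membrane-type MMP, rose in aKO under siNS (0.76 ± 0.16 (SE) in eWAT and 0.89 ± 0.20 in iWAT (edgeR QL adjusted p = 8.75e-04 and 0.00247)). It also rose with siC/EBPb in Cont (0.63 ± 0.16 (SE) in eWAT and 0.68 ± 0.19 in iWAT (edgeR QL adjusted p = 0.0038 and 0.00829)) and did not pass in aKO (0.28 and 0.12). Mmp16 passed in no comparison and stayed at 0.295 to 1.98 CPM.

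Of the remaining MMPs, Mmp19 fell with siC/EBPb and Mmp23 and Mmp28 rose in aKO under siNS. The siC/EBPb log2 fold change of Mmp19 was -0.33 ± 0.069 (SE) in eWAT and -0.30 ± 0.07 in iWAT (edgeR QL adjusted p = 6.29e-04 and 0.00221) in Cont and -0.46 ± 0.069 (SE) in eWAT and -0.52 ± 0.074 in iWAT (edgeR QL adjusted p = 5.59e-06 and 3.04e-06) in aKO, with 1001 bases of its exons shared with Tmem198b on the other strand, a gene of 6077 counts in all. Mmp23, an MMP anchored at its amino-terminal end (chromosome 4, 155650655 to 155653384), had in eWAT 121, 129 and 124 CPM in Cont siNS, 151, 133 and 157 in Cont siC/EBPb, 169, 156 and 174 in aKO siNS, and 128, 161 and 136 in aKO siC/EBPb. Mmp23 in iWAT had 120.2, 132 and 124 CPM in Cont siNS, 142, 130.0 and 136 in Cont siC/EBPb, 156, 152 and 142 in aKO siNS, and 126, 129.8 and 125 in aKO siC/EBPb. The aKO siNS libraries lay above the Cont siNS libraries in both depots. Its genotype log2 fold change under siNS was 0.42 ± 0.077 (SE) in eWAT and 0.25 ± 0.084 in iWAT (edgeR QL adjusted p = 2.10e-04 and 0.0386), with an iWAT adjusted p of 0.244 and 0.0639 leaving out iWAT aKO siNS libraries 1 and 3, 0.173 and 0.0973 leaving out iWAT Cont siNS libraries 1 and 3, 0.0518 by DESeq2, 0.0582 with the iWAT libraries alone, and 0.0815 with no filter on low counts. With siC/EBPb it was 0.24 ± 0.077 (SE) in eWAT and 0.12 ± 0.079 in iWAT (edgeR QL adjusted p = 0.0209 and 0.315) in Cont, and in eWAT the adjusted p was 0.103 and 0.0514 leaving out eWAT Cont siNS libraries 1 and 3, 0.0946 and 0.125 leaving out eWAT Cont siC/EBPb libraries 1 and 3, and 0.069 with no filter on low counts. In aKO it fell, with a log2 fold change of -0.24 ± 0.077 (SE) in eWAT and -0.24 ± 0.083 in iWAT (edgeR QL adjusted p = 0.0169 and 0.0312). There the adjusted p was 0.0752 leaving out eWAT aKO siNS library 3, 0.115 and 0.0631 leaving out eWAT aKO siC/EBPb libraries 1 and 3, and 0.073 with no filter on low counts in eWAT and 0.21 leaving out iWAT aKO siNS library 1, 0.0813, 0.0522 and 0.0875 leaving out iWAT aKO siC/EBPb libraries 1, 2 and 3, and 0.232 with no filter on low counts in iWAT.

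Mmp28, a secreted MMP also called epilysin (chromosome 11, 83440768 to 83463071), rose in aKO. In eWAT it had 6.16, 7.26 and 8.26 CPM in Cont siNS, 9.06, 8.0 and 9.06 in Cont siC/EBPb, 14.1, 12.1 and 12.3 in aKO siNS, and 9.96, 11.5 and 9.89 in aKO siC/EBPb. In iWAT, Mmp28 stood at 5.43, 5.74 and 5.53 CPM in Cont siNS, 8.08, 8.47 and 7.23 in Cont siC/EBPb, 12.0, 27.7 and 12.9 in aKO siNS, and 8.80, 8.60 and 9.85 in aKO siC/EBPb. The high iWAT value is the shallow library, and the aKO and Cont siNS values did not overlap in either depot. The genotype log2 fold change under siNS was 0.83 ± 0.13 (SE) in eWAT and 1.23 ± 0.16 in iWAT (edgeR QL adjusted p = 2.63e-05 and 2.63e-06). With siC/EBPb it was 0.27 ± 0.13 (SE) in eWAT and 0.51 ± 0.16 in iWAT (edgeR QL adjusted p = 0.146 and 0.0166) in Cont and -0.29 ± 0.12 (SE) in eWAT and -0.53 ± 0.14 in iWAT (edgeR QL adjusted p = 0.0615 and 0.00487) in aKO. In iWAT Cont the adjusted p was 0.0662 leaving out iWAT Cont siNS library 1, 0.0822 leaving out iWAT Cont siC/EBPb library 2, and 0.0708 by DESeq2.

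Among the ADAMTS proteases that cut the proteoglycans versican and aggrecan, 3 fell with siC/EBPb in all 4 comparisons. Adamts15 (chromosome 9, 30899155 to 30922452, outside the MMP cluster) had in eWAT 317, 348 and 333 CPM in Cont siNS, 152, 128 and 149 in Cont siC/EBPb, 383, 340.5 and 339 in aKO siNS, and 51.6, 107 and 100 in aKO siC/EBPb. Its iWAT libraries held 293, 287 and 262 CPM in Cont siNS, 125, 121 and 121 in Cont siC/EBPb, 308, 485 and 320.4 in aKO siNS, and 45.5, 86.3 and 84.4 in aKO siC/EBPb. Replicate 1 was the lowest of aKO siC/EBPb in both depots. With siC/EBPb the log2 fold change of Adamts15 was -1.22 ± 0.22 (SE) in eWAT and -1.20 ± 0.23 in iWAT (edgeR QL adjusted p = 3.71e-04 and 5.53e-04) in Cont and -2.04 ± 0.23 (SE) in eWAT and -2.28 ± 0.24 in iWAT (edgeR QL adjusted p = 9.62e-07 and 6.31e-07) in aKO. Between genotypes under siC/EBPb it was -0.73 ± 0.23 (SE) in eWAT and -0.76 ± 0.23 in iWAT (edgeR QL adjusted p = 0.0464 and 0.0432). That adjusted p was 0.165 leaving out eWAT aKO siC/EBPb library 1, 0.134, 0.0599 and 0.12 leaving out eWAT Cont siC/EBPb libraries 1, 2 and 3, and 0.0735 with the eWAT libraries alone in eWAT. In iWAT it was 0.19 leaving out iWAT aKO siC/EBPb library 1 and 0.103, 0.0915 and 0.0947 leaving out iWAT Cont siC/EBPb libraries 1, 2 and 3. Adamts5, the main aggrecan-cutting enzyme of mouse cartilage, fell in all 8 comparisons. Its log2 fold change was -0.68 ± 0.10 (SE) in eWAT and -0.72 ± 0.11 in iWAT (edgeR QL adjusted p = 2.01e-05 and 2.09e-05) for the genotype under siNS, -0.75 and -0.75 under siC/EBPb, -0.49 and -0.44 for the siRNA in Cont and -0.56 and -0.47 in aKO.

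Adamts9 fell with siC/EBPb as well, with a log2 fold change of -0.27 ± 0.083 (SE) in eWAT and -0.39 ± 0.09 in iWAT (edgeR QL adjusted p = 0.0168 and 0.00176) in Cont and -0.40 ± 0.088 (SE) in eWAT and -0.65 ± 0.10 in iWAT (edgeR QL adjusted p = 6.12e-04 and 1.12e-05) in aKO. In eWAT Cont the adjusted p was 0.0512 and 0.057 leaving out eWAT Cont siNS libraries 2 and 3 and 0.0652 and 0.0587 leaving out eWAT Cont siC/EBPb libraries 1 and 2. Between genotypes Adamts9 fell in aKO under siC/EBPb (-0.45 ± 0.087 (SE) in eWAT and -0.47 ± 0.094 in iWAT (edgeR QL adjusted p = 7.46e-04 and 0.0011)) and, in eWAT, under siNS (-0.31 ± 0.083 (SE; edgeR QL adjusted p = 0.00751)). Adamts1 fell with siC/EBPb in aKO (-0.65 ± 0.10 (SE) in eWAT and -0.72 ± 0.11 in iWAT (edgeR QL adjusted p = 1.34e-05 and 8.86e-06)), and in Cont it was -0.32 ± 0.10 (SE) in eWAT and -0.27 ± 0.11 in iWAT (edgeR QL adjusted p = 0.0251 and 0.0675), with an eWAT adjusted p of 0.155 leaving out eWAT Cont siNS library 3 and 0.068 and 0.0795 leaving out eWAT Cont siC/EBPb libraries 1 and 3. Adamts4 fell in aKO under siNS, with a log2 fold change of -0.53 ± 0.087 (SE) in eWAT and -0.48 ± 0.10 in iWAT (edgeR QL adjusted p = 5.53e-05 and 0.0014), and did not pass with siC/EBPb. Part of the Adamts4 count is uncertain, since no source used here gives the strand setting.

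Of the procollagen N-proteinases, which cut the amino-terminal propeptide from fibrillar procollagens, Adamts14 rose with siC/EBPb while Adamts2 and Adamts3 fell in aKO. Adamts14 (chromosome 10, 61197112 to 61273438) had in eWAT 10.7, 10.9 and 10.2 CPM in Cont siNS, 15.3, 17.3 and 16.9 in Cont siC/EBPb, 6.70, 5.42 and 5.70 in aKO siNS, and 15.5, 15.9 and 14.0 in aKO siC/EBPb. Adamts14 in iWAT had 10.5, 10.4 and 9.62 CPM in Cont siNS, 13.3, 15.7 and 13.3 in Cont siC/EBPb, 5.76, 3.96 and 4.03 in aKO siNS, and 12.1, 12.6 and 10.9 in aKO siC/EBPb. The aKO siNS libraries were the lowest in both depots, and the siC/EBPb libraries lay above all siNS libraries. Under siNS the genotype log2 fold change was -0.84 ± 0.12 (SE) in eWAT and -1.08 ± 0.15 in iWAT (edgeR QL adjusted p = 7.77e-06 and 8.77e-06). With siC/EBPb it was 0.64 ± 0.10 (SE) in eWAT and 0.47 ± 0.12 in iWAT (edgeR QL adjusted p = 2.21e-05 and 0.00276) in Cont and 1.35 ± 0.12 (SE) in eWAT and 1.30 ± 0.14 in iWAT (edgeR QL adjusted p = 3.22e-10 and 4.95e-08) in aKO.

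Adamts2 (chromosome 11, 50602084 to 50807573), far more abundant, had in eWAT 1075, 1087 and 1111 CPM in Cont siNS, 979, 833 and 959 in Cont siC/EBPb, 1411, 1268 and 1287 in aKO siNS, and 605, 894 and 792 in aKO siC/EBPb. In iWAT, Adamts2 stood at 942, 878 and 866 CPM in Cont siNS, 719, 712 and 721 in Cont siC/EBPb, 1093, 1558 and 1103 in aKO siNS, and 499, 672 and 674 in aKO siC/EBPb. The aKO siC/EBPb group had the lowest mean and replicate 2 of iWAT aKO siNS, the shallow library, was highest. Under siC/EBPb against siNS, Adamts2 had a log2 fold change of -0.79 ± 0.13 (SE) in eWAT and -1.01 ± 0.14 in iWAT (edgeR QL adjusted p = 2.18e-05 and 1.05e-06) in aKO and did not pass in Cont (-0.24 and -0.32). Under siNS Adamts2 was higher in iWAT aKO, by 0.46 ± 0.13 (SE; edgeR QL adjusted p = 0.0166), and that adjusted p was 0.138 leaving out iWAT aKO siNS library 2, 0.061 and 0.0607 leaving out iWAT Cont siNS libraries 2 and 3, and 0.0589 with the iWAT libraries alone. Adamts3, which also acts on a lymphatic growth factor, fell with siC/EBPb in aKO, with a log2 fold change of -1.32 ± 0.20 (SE) in eWAT and -1.41 ± 0.24 in iWAT (edgeR QL adjusted p = 6.22e-06 and 2.72e-05). In eWAT Cont its value was -0.69 ± 0.20 (SE; edgeR QL adjusted p = 0.0118), with an adjusted p of 0.0553 leaving out eWAT Cont siNS library 2 and 0.0631 and 0.0808 leaving out eWAT Cont siC/EBPb libraries 2 and 3.

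Adamts6, a relative of the fibrillin-binding Adamts10, fell in aKO under siNS and rose with siC/EBPb. On chromosome 13 (104287835 to 104496695), it had in eWAT 42.2, 37.0 and 44.5 CPM in Cont siNS, 53.3, 60.4 and 56.5 in Cont siC/EBPb, 17.1, 16.7 and 13.1 in aKO siNS, and 56.1, 44.0 and 45.9 in aKO siC/EBPb. Its iWAT libraries held 28.5, 32.1 and 28.7 CPM in Cont siNS, 35.8, 48.6 and 40.5 in Cont siC/EBPb, 11.4, 21.8 and 10.7 in aKO siNS, and 46.8, 38.8 and 37.3 in aKO siC/EBPb. The aKO siNS libraries lay below all others of their depot, and within siC/EBPb the genotypes overlapped. Under siNS the genotype log2 fold change was -1.41 ± 0.13 (SE) in eWAT and -1.39 ± 0.17 in iWAT (edgeR QL adjusted p = 1.29e-08 and 1.42e-06), and under siC/EBPb -0.22 and -0.03, which did not pass. With siC/EBPb the values were 0.46 ± 0.11 (SE) in eWAT and 0.49 ± 0.12 in iWAT (edgeR QL adjusted p = 0.00273 and 0.0045) in Cont and 1.65 ± 0.13 (SE) in eWAT and 1.85 ± 0.16 in iWAT (edgeR QL adjusted p = 1.46e-10 and 1.25e-09) in aKO. In iWAT Cont the adjusted p was 0.0617 leaving out iWAT Cont siC/EBPb library 2.

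Adamts12, which cuts the cartilage matrix protein COMP (chromosome 15, 11064790 to 11349231), had in eWAT 160.2, 159 and 171 CPM in Cont siNS, 150.1, 162 and 143 in Cont siC/EBPb, 161, 157 and 141 in aKO siNS, and 215, 183 and 182 in aKO siC/EBPb. Adamts12 in iWAT had 157, 151 and 148 CPM in Cont siNS, 138, 160.4 and 147 in Cont siC/EBPb, 155, 166 and 151 in aKO siNS, and 202, 193 and 172 in aKO siC/EBPb. The aKO siC/EBPb libraries lay above all others of their depot. For Adamts12 the siC/EBPb log2 fold change was 0.34 ± 0.079 (SE) in eWAT and 0.29 ± 0.085 in iWAT (edgeR QL adjusted p = 0.00107 and 0.00985) in aKO, with an iWAT adjusted p of 0.0608 leaving out iWAT aKO siNS library 3 and 0.0586 leaving out iWAT aKO siC/EBPb library 1, and did not pass in Cont (-0.11 and -0.04). Between genotypes under siC/EBPb it was 0.35 ± 0.079 (SE) in eWAT and 0.35 ± 0.079 in iWAT (edgeR QL adjusted p = 0.00297 and 0.00342). Adamts7, its closest relative, fell with siC/EBPb in eWAT Cont (-0.30 ± 0.11 (SE; edgeR QL adjusted p = 0.0398)) and iWAT aKO (-0.41 ± 0.13 (SE; edgeR QL adjusted p = 0.0124)). The adjusted p of Adamts7 was 0.0719 and 0.216 leaving out eWAT Cont siNS libraries 1 and 3, 0.0827, 0.142 and 0.0523 leaving out eWAT Cont siC/EBPb libraries 1, 2 and 3, and 0.157 by DESeq2 in the former and 0.0624 leaving out iWAT aKO siNS library 3 in the latter. It shares 122 exon bases with Tbc1d2b on the other strand, a gene of 124026 counts in all. Adamts10 passed in no comparison.

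Adamts16 and Adamts17 had few counts. The filter level was reached by Adamts16 only with siC/EBPb, in eWAT Cont, eWAT aKO and iWAT aKO, so it was kept through groups where it was high. Adamts16 rose with siC/EBPb in aKO, by 2.09 ± 0.34 (SE) in eWAT and 2.46 ± 0.50 in iWAT (edgeR QL adjusted p = 1.86e-05 and 3.14e-04), from 21 counts over 3 libraries to 91 in eWAT and from 7 to 61 in iWAT. Without iWAT aKO siNS replicate 1 the iWAT value was 1.81, and without replicate 3, which leaves 1 count, it was 4.09. In eWAT Cont the value was 1.20 ± 0.40 (SE; edgeR QL adjusted p = 0.0272), with an adjusted p of 0.144 and 0.0681 leaving out eWAT Cont siNS libraries 2 and 3, 0.0809 and 0.0582 leaving out eWAT Cont siC/EBPb libraries 2 and 3, and 0.0574 by DESeq2. Under siC/EBPb it was higher in eWAT aKO, by 1.04 ± 0.29 (SE; edgeR QL adjusted p = 0.0182), with an adjusted p of 0.0537 leaving out eWAT aKO siC/EBPb library 1, 0.0838 and 0.0628 leaving out eWAT Cont siC/EBPb libraries 1 and 3, and 0.0665 by DESeq2. Adamts17 held 10 counts over the Cont siNS libraries of eWAT against 26 over the aKO ones, and 6 against 19 in iWAT. Its genotype value under siNS was 1.35 ± 0.47 (SE) in eWAT and 1.88 ± 0.57 in iWAT (edgeR QL adjusted p = 0.0435 and 0.025). In eWAT that adjusted p was 0.143 and 0.0907 leaving out eWAT aKO siNS libraries 1 and 2, 0.0769, 0.119 and 0.108 leaving out eWAT Cont siNS libraries 1, 2 and 3, 0.148 by DESeq2, 0.111 with no filter on low counts, and 0.0531 with the replicate block. In iWAT it was 0.059 and 0.16 leaving out iWAT aKO siNS libraries 1 and 3, 0.1 and 0.104 leaving out iWAT Cont siNS libraries 1 and 2, and 0.095 by DESeq2. With siC/EBPb in Cont the value was 1.39 ± 0.47 (SE) in eWAT and 1.70 ± 0.55 in iWAT (edgeR QL adjusted p = 0.0276 and 0.0237). The eWAT adjusted p was 0.0525, 0.0919 and 0.0734 leaving out eWAT Cont siNS libraries 1, 2 and 3, 0.0761 and 0.0701 leaving out eWAT Cont siC/EBPb libraries 1 and 2, 0.108 by DESeq2, and 0.0726 with no filter on low counts. That of iWAT was 0.0989 and 0.114 leaving out iWAT Cont siNS libraries 1 and 2, 0.0938 leaving out iWAT Cont siC/EBPb library 3, 0.0876 by DESeq2, and 0.0549 with no filter on low counts.

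The ADAMTS-like genes, whose products bind fibrillin microfibrils without cutting them, include Adamtsl3 and Adamtsl4, which rose in aKO under siNS and under siC/EBPb in both depots. Adamtsl4 (chromosome 3, 95676201 to 95687917), known from inherited lens displacement, had in eWAT 10.1, 10.7 and 11.7 CPM in Cont siNS, 12.4, 11.4 and 13.1 in Cont siC/EBPb, 37.5, 34.9 and 37.2 in aKO siNS, and 24.4, 25.1 and 26.6 in aKO siC/EBPb. In iWAT, Adamtsl4 stood at 9.54, 12.1 and 10.1 CPM in Cont siNS, 10.6, 9.58 and 9.88 in Cont siC/EBPb, 30.5, 39.6 and 31.9 in aKO siNS, and 18.2, 19.6 and 20 in aKO siC/EBPb. All 12 aKO libraries lay above all 12 Cont libraries. Under siNS the genotype log2 fold change was 1.76 ± 0.086 (SE) in eWAT and 1.59 ± 0.10 in iWAT (edgeR QL adjusted p = 2.22e-14 and 1.00e-11). Under siC/EBPb it was 1.04 ± 0.086 (SE) in eWAT and 0.95 ± 0.096 in iWAT (edgeR QL adjusted p = 2.46e-09 and 9.14e-08). With siC/EBPb Adamtsl4 fell in aKO (-0.53 ± 0.077 (SE) in eWAT and -0.72 ± 0.09 in iWAT (edgeR QL adjusted p = 3.28e-06 and 3.93e-07)) and did not pass in Cont (0.19 and -0.08).

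Adamtsl1 (chromosome 4, 85514172 to 86428385) had in eWAT 88.4, 85.8 and 89.2 CPM in Cont siNS, 169, 152 and 153 in Cont siC/EBPb, 86.5, 75.4 and 78.9 in aKO siNS, and 139, 147 and 127 in aKO siC/EBPb. Its iWAT libraries held 81.3, 86.5 and 80.1 CPM in Cont siNS, 154, 159 and 158 in Cont siC/EBPb, 82.9, 117 and 82.3 in aKO siNS, and 136, 144 and 123 in aKO siC/EBPb. Every siC/EBPb library lay above every siNS library. The log2 fold change with siC/EBPb was 0.85 ± 0.077 (SE) in eWAT and 0.93 ± 0.08 in iWAT (edgeR QL adjusted p = 2.24e-09 and 8.84e-10) in Cont and 0.78 ± 0.078 (SE) in eWAT and 0.65 ± 0.087 in iWAT (edgeR QL adjusted p = 6.35e-09 and 9.25e-07) in aKO, and no genotype comparison passed. Adamtsl3 rose both in aKO (1.53 ± 0.22 (SE) in eWAT and 1.61 ± 0.27 in iWAT (edgeR QL adjusted p = 6.96e-06 and 1.06e-04) under siNS) and with siC/EBPb (1.21 ± 0.22 (SE) in eWAT and 1.29 ± 0.26 in iWAT (edgeR QL adjusted p = 1.16e-04 and 4.52e-04) in Cont). Its other log2 fold changes were 1.43 and 1.28 for the genotype under siC/EBPb and 1.12 and 0.96 for the siRNA in aKO. Adamtsl2, altered in geleophysic dysplasia, rose with siC/EBPb in Cont (0.83 ± 0.20 (SE) in eWAT and 0.69 ± 0.24 in iWAT (edgeR QL adjusted p = 0.00182 and 0.0371)). There the iWAT adjusted p was 0.179 leaving out iWAT Cont siNS library 3, 0.112 and 0.114 leaving out iWAT Cont siC/EBPb libraries 1 and 3, 0.081 by DESeq2, and 0.0807 with the iWAT libraries alone. Adamtsl2 fell in aKO under siC/EBPb (-1.27 ± 0.21 (SE) in eWAT and -1.15 ± 0.25 in iWAT (edgeR QL adjusted p = 9.87e-05 and 0.00204)). Under siNS it fell in eWAT aKO (-0.72 ± 0.24 (SE; edgeR QL adjusted p = 0.0301)), with an adjusted p of 0.0903 and 0.114 leaving out eWAT aKO siNS libraries 2 and 3, 0.0638 and 0.147 leaving out eWAT Cont siNS libraries 1 and 2, and 0.084 by DESeq2. Adamtsl5 passed in no comparison.

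The interaction of genotype and siRNA was tested directly, as the siC/EBPb effect in aKO minus that in Cont. In eWAT 7 of 39 members passed (3 higher and 4 lower, background 6.34%), and in iWAT 7 passed (2 and 5, background 3.51%). The difference was positive for Adamts6 and Adamts14 in both depots, and negative for Adamtsl4 and Mmp11. For Adamts6 the interaction was 1.19 ± 0.17 (SE) in eWAT and 1.36 ± 0.20 in iWAT (edgeR QL adjusted p = 1.06e-04 and 2.43e-04). For Adamts14 it was 0.71 ± 0.16 (SE) in eWAT and 0.83 ± 0.19 in iWAT (edgeR QL adjusted p = 0.00562 and 0.00953), with an iWAT adjusted p of 0.135 leaving out iWAT aKO siNS library 3. Adamtsl4 had -0.72 ± 0.12 (SE) in eWAT and -0.64 ± 0.14 in iWAT (edgeR QL adjusted p = 5.42e-04 and 0.00824). Mmp11 had -1.02 ± 0.18 (SE) in eWAT and -1.14 ± 0.19 in iWAT (edgeR QL adjusted p = 0.00113 and 8.64e-04). In both depots the Adamts6 and Adamts14 libraries of aKO siNS were below the other 3 groups, and the Adamtsl4 libraries of aKO siNS above them.

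With all libraries the others passed in 1 depot. In eWAT these were Mmp23 (-0.48 ± 0.11 (SE; edgeR QL adjusted p = 0.00815)), Adamts12 (0.45 ± 0.11 (SE; edgeR QL adjusted p = 0.0146)) and Timp2 (-0.40 ± 0.10 (SE; edgeR QL adjusted p = 0.021)). In iWAT they were Mmp28 (-1.04 ± 0.21 (SE; edgeR QL adjusted p = 0.00403)), Adamts2 (-0.69 ± 0.19 (SE; edgeR QL adjusted p = 0.0376)) and Mmp2 (-0.44 ± 0.12 (SE; edgeR QL adjusted p = 0.0459)). Left-out libraries and other settings gave adjusted p values over the threshold for 4 of them. That of Adamts12 in eWAT was 0.0598 leaving out eWAT aKO siNS library 3, 0.0743 leaving out eWAT aKO siC/EBPb library 1, and 0.0546 leaving out eWAT Cont siC/EBPb library 3. That of Timp2 in eWAT was 0.0564 leaving out eWAT aKO siNS library 3, 0.0659 leaving out eWAT aKO siC/EBPb library 1, 0.0526 and 0.0513 leaving out eWAT Cont siNS libraries 1 and 2, 0.0655 and 0.0518 leaving out eWAT Cont siC/EBPb libraries 1 and 3, and 0.216 with no filter on low counts. That of Adamts2 in iWAT was 0.0878 leaving out iWAT aKO siNS library 2, 0.152 leaving out iWAT aKO siC/EBPb library 1, 0.0603, 0.0739 and 0.0847 leaving out iWAT Cont siNS libraries 1, 2 and 3, 0.0816, 0.0694 and 0.0831 leaving out iWAT Cont siC/EBPb libraries 1, 2 and 3, and 0.12 with the iWAT libraries alone. That of Mmp2 in iWAT was 0.101 leaving out iWAT aKO siNS library 3, 0.189 and 0.061 leaving out iWAT aKO siC/EBPb libraries 1 and 2, 0.0995, 0.101 and 0.0678 leaving out iWAT Cont siNS libraries 1, 2 and 3, 0.101, 0.106 and 0.0976 leaving out iWAT Cont siC/EBPb libraries 1, 2 and 3, 0.179 with the iWAT libraries alone, and 0.234 with no filter on low counts. Without the shallow library 11 members passed in iWAT, and 5 of these passed there only without it. Mmp23 (-0.35), Adamts12 (0.34) and Timp2 (-0.34) then passed in both depots (edgeR QL adjusted p in iWAT = 0.0426, 0.0418 and 0.00345). Timp1 (0.40) and Adamts17 (-2.42, few counts) also passed in iWAT without it (edgeR QL adjusted p = 0.00614 and 0.0442). Whether an interaction differs between depots was not tested.

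**Figure D5:**
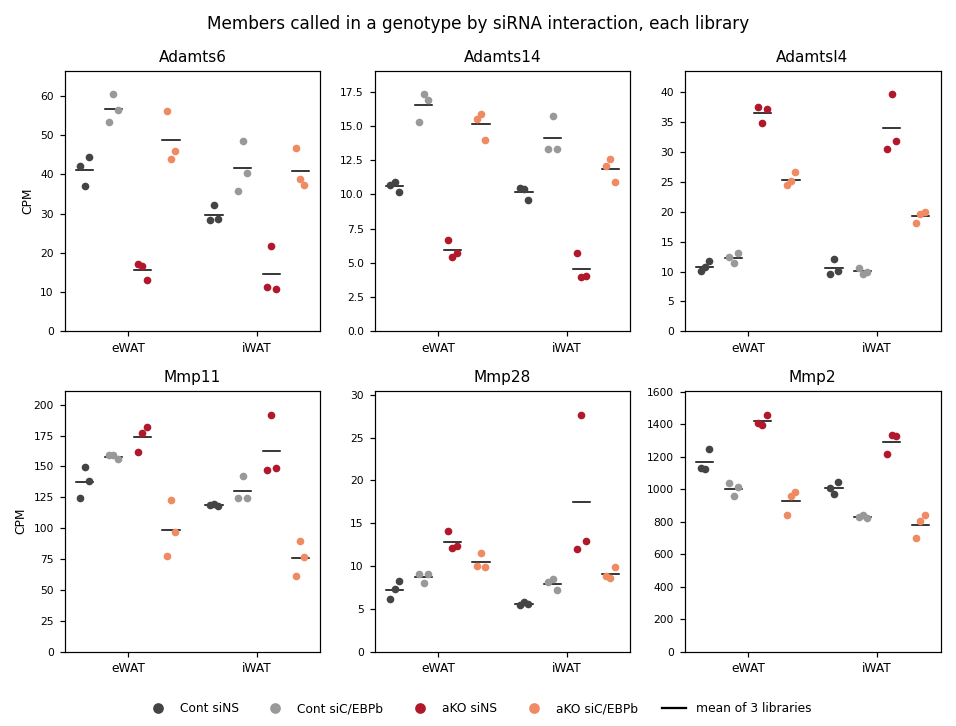
CPM in each library (dots) and group means (lines) of 6 members that passed the interaction test in 1 or both depots. In aKO siNS (dark red) Adamts6 and Adamts14 are lowest and Adamtsl4 is highest. In aKO siC/EBPb (orange) the means of Adamts6 and Adamts14 lie above those of Cont siNS in both depots. There Adamtsl4 is lower than in aKO siNS but stays above the Cont groups. The isolated high Mmp28 value in iWAT is the shallow library.

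Other genes that control matrix proteolysis were read from a list of 35 related proteases, activators and inhibitors, of which 32 were tested. In aKO under siNS 6 rose and 8 fell in eWAT (background 20.4%), and 5 and 8 in iWAT (15.2%). In aKO under siC/EBPb 3 rose and 11 fell in eWAT (10.8%), and 3 and 9 in iWAT (10.0%). With siC/EBPb in Cont 1 rose and 15 fell in eWAT (26.8%), and 1 and 17 in iWAT (24.3%). With siC/EBPb in aKO 6 rose and 19 fell in eWAT (35.7%), and 5 and 20 in iWAT (31.3%). Reck, a membrane-anchored inhibitor of MMPs, rose in aKO under siNS (0.45 ± 0.07 (SE) in eWAT and 0.55 ± 0.08 in iWAT (edgeR QL adjusted p = 3.18e-05 and 1.41e-05)). A2m, a broad protease trap, fell with siC/EBPb in Cont (-2.25 ± 0.15 (SE) in eWAT and -2.16 ± 0.17 in iWAT (edgeR QL adjusted p = 4.38e-12 and 1.54e-10)). Adam17, the shedding protease that Timp3 inhibits, fell as well (-0.72 ± 0.069 (SE) in eWAT and -0.75 ± 0.07 in iWAT (edgeR QL adjusted p = 4.65e-09 and 4.66e-09)). So did Plau, the urokinase that makes plasmin (-0.71 ± 0.11 (SE) in eWAT and -0.72 ± 0.11 in iWAT (edgeR QL adjusted p = 1.10e-05 and 1.96e-05)). Pcsk6, a proprotein convertase, rose (1.25 ± 0.082 (SE) in eWAT and 1.05 ± 0.09 in iWAT (edgeR QL adjusted p = 5.34e-12 and 8.48e-10)).

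The matrix genes that these proteases cut or build were read from a list of 40, of which 38 were tested. In aKO under siNS 5 rose and 3 fell in eWAT, and 8 and 1 in iWAT, so that 8 and 9 of the 38 passed beside backgrounds of 20.4% and 15.2%. In aKO under siC/EBPb 4 rose and 3 fell in eWAT (10.8%), and 4 and 4 in iWAT (10.0%). With siC/EBPb 5 rose and 12 fell in eWAT Cont (26.8%), 5 and 11 in iWAT Cont (24.3%), 7 and 15 in eWAT aKO (35.7%), and 5 and 20 in iWAT aKO (31.3%). Fmod, the collagen-binding proteoglycan fibromodulin, rose in aKO under siNS (1.47 ± 0.14 (SE) in eWAT and 1.58 ± 0.15 in iWAT (edgeR QL adjusted p = 1.10e-07 and 2.12e-07)). Vcan, the proteoglycan versican, fell with siC/EBPb in Cont (-0.72 ± 0.085 (SE) in eWAT and -0.65 ± 0.086 in iWAT (edgeR QL adjusted p = 2.02e-07 and 1.39e-06)), beside its proteases Adamts5, Adamts9 and Adamts15. The type III collagen gene Col3a1 fell (-0.65 ± 0.13 (SE) in eWAT and -0.68 ± 0.13 in iWAT (edgeR QL adjusted p = 3.91e-04 and 2.97e-04)), and elastin, Eln, rose (1.22 ± 0.22 (SE) in eWAT and 1.09 ± 0.23 in iWAT (edgeR QL adjusted p = 3.28e-04 and 0.00166)). The basement membrane gene Lamc1 fell in Cont (-0.68 ± 0.091 (SE) in eWAT and -0.66 ± 0.091 in iWAT (edgeR QL adjusted p = 1.36e-06 and 2.66e-06)) and in aKO (-0.99 and -1.16).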

How the data were processed

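Polyadenylated RNA was sequenced in 24 libraries made with a strand-marking kit, per the labels' protocols. The deposited values are raw read counts per gene, which the authors made with CASAVA, cutadapt 2.7, TopHat2 2.1.1 and HTSeq on build GRCm38, per the submitters' processing notes. The annotation release and strand setting are not given in the sources used here. Genes with exons on opposite strands are therefore uncertain. Counter lines for reads without a gene held 27.5 to 39.5% of listed reads (95.9% in the shallow library) and stayed out of library sizes.

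Counts were fitted with edgeR 4.0.16 in R 4.3.3 (quasi-likelihood test, TMM scaling, limma 3.58.1), all 24 libraries in 1 fit without a block. Genes were kept with filterByExpr at a minimum count of 10, which left 14785. P-values were adjusted by Benjamini-Hochberg over all of them in each comparison, with a threshold of 0.05. CPM are counts divided by TMM-scaled library size, and exon lengths are from GENCODE M21. The members and lists were chosen with earlier results of these data known. Values in every library are given for Timp1 to Timp4, Mmp2, Mmp14, the members with the 4 smallest p in a genotype comparison under siNS or the 2 smallest in a siRNA comparison, where past the threshold, and those past it in an interaction. The fit was also run on simulated counts, drawn as independent libraries with the same variability for every gene. That simulation had no depots that deviate together, so it does not cover that feature of these data. Same-numbered Cont siNS libraries of the depots deviated together (r = 0.27, 0.425 and 0.312 across genes), as did those of aKO siC/EBPb (0.748, 0.424 and 0.537). In Cont siC/EBPb r was 0.0796 to 0.235 and in aKO siNS -0.528 to 0.541. The depot comparison, in Cont siNS, was therefore also fitted with the replicate number as a block. That block was shared by all 8 groups, so it does not remove a pairing that holds only within some groups. Replicates differed beyond sampling noise and were all kept. Alternatives were DESeq2 1.42.0, other filters, each depot alone, the replicate block and leaving out each library. Some results for other genes are not reported here.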

Additional observations from a re-analysis of the deposited data

Results flagged for a closer look

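The effect of siC/EBPb differed between aKO and Cont, by the edgeR quasi-likelihood test of the difference itself, for 7 members in each depot. Values are the log2 effect in aKO minus that in Cont. In eWAT Adamts6 had 1.19, Adamts14 0.71 and Adamts12 0.45, and Mmp11 had -1.02, Adamtsl4 -0.72, Mmp23 -0.48 and Timp2 -0.40. In iWAT Adamts6 had 1.36 and Adamts14 0.83, and Mmp11 had -1.14, Mmp28 -1.04, Adamts2 -0.69, Adamtsl4 -0.64 and Mmp2 -0.44. Cebpb itself stood at 50.4 CPM in eWAT Cont and 27.4 CPM in eWAT aKO with the siRNA, and at 36.0 and 18.5 CPM in iWAT, and the part of this gap in the differences was not tested.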

How the results depend on the processing

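Of 188 calls of members, 143 were kept in every fit that left out 1 library and 142 in every setting run, and no value called in the report changed sign. In eWAT the genotype by siRNA test called 7 members, 15 with the eWAT libraries alone, 12 with no filter on low counts and 5 to 11 with 1 library left out, the 11 without aKO siC/EBPb replicate 2. In iWAT it called 7, and 5 to 11 with 1 library left out, the 11 without the shallow aKO siNS replicate 2. The depot comparison called 0, and 4 with no filter. The causes were not tested. With the replicate block the counts of members called were 20 and 21 for the genotype under siNS in eWAT and iWAT, 15 and 15 under siC/EBPb, 26 and 23 for the siRNA in Cont, 29 and 30 in aKO, 10 and 7 for the interaction, and 0 for the depot. Few counts limit Timp4, Mmp8, Mmp10, Mmp27, Adamts16 and Adamts17.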
